A study of Homo sapiens with 4 samples.

Results

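Transcripts of ATF4 and of 9 genes that belong to the integrated stress response (ATF5, DDIT3, TRIB3, CHAC1, ASNS, SESN2, VLDLR, CEBPB and STC2) were followed on 4 Affymetrix arrays of HEK293 cells, a human embryonic kidney line. The 10 genes were among 19775 with a probe set that the platform annotation assigns to exactly 1 symbol, and 17 such probe sets represented them. They were chosen with differences between these arrays in view, both for replicate number 2 minus 1 and for LPA minus untreated, so their values in these comparisons are a description and were not tested. LPA (lysophosphatidic acid, a serum phospholipid that signals through G protein-coupled receptors) had been added at 1 µM for 2 h to cells kept overnight in medium without serum, and the untreated arrays (titled Vc, with treatment given as none) had no LPA. Each group had 2 arrays, with replicate numbers 1 and 2. The labels state neither what the number marks nor whether the replicates were separate cultures, so the p-values below cover only array-to-array spread, part of which may be technical.

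In the integrated stress response, several kinases phosphorylate the translation factor eIF2, which slows protein synthesis in general while open reading frames in the leader of ATF4 mRNA let more ATF4 protein be made. ATF4 then binds composite sites together with C/EBP partners and activates genes of amino acid supply, redox balance and feedback. Regulation of ATF4 is therefore known largely at translation, and an array measures only its mRNA.

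Array medians of intensity ranged from 70.3 to 76.1. LPA replicate 2 had the lowest maximum, 62508, against 93776 to 104012 on the other arrays. Its ratio of 3′ to 5′ ACTB signal was the highest, 18.8 against 12.6 to 13.6. The GAPDH ratio set this array apart much less. It was 1.38 there and 1.35 on the other LPA array, while the untreated arrays had 1.25 (number 1) and 1.22 (number 2). Of 7 genes listed for the HEK293 background and measured, 6 passed the filter on brightness described below, among them VIM, KRT18 and NEFM, and LHX1 did not. Of 10 markers of other cell types 4 passed (PECAM1, COL1A1, COL3A1 and ACTA2), and the blood markers PTPRC, CD3E and CD14 and the hepatocyte marker ALB did not. The summed intensity of these 10 was 1794 and 2047 on the LPA and untreated arrays of number 2, and 1705 and 1765 on those of number 1.

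Of the 9 genes other than ATF4, 8 read higher on both arrays of replicate number 2 than on either array of number 1, and ATF4 mRNA and ATF5 did not. Differences between LPA and untreated arrays of the same number were smaller in most of them. CHAC1 (chr15:40953471-40956512 in RefSeq, GRCh38.p14), the enzyme that breaks down glutathione by γ-glutamyl cyclotransfer, read 402 on the LPA array and 393 on the untreated array of number 2, against 78.0 on the LPA array and 122 on the untreated array of number 1. All CHAC1 values of number 2 were above those of number 1. The difference was 2.01 on the log2(intensity + 1) scale, or 4.04-fold, rank 6 from the highest among 11865 genes tested. Within treatments it was 2.35 between the LPA arrays and 1.67 between the untreated arrays. In RNA of whole cultures, fewer cells that express a gene and less of its RNA per cell cannot be told apart.

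ASNS, which makes asparagine from aspartate and glutamine, read 12225 (LPA) and 13962 (untreated) for number 2, against 7565 (LPA) and 7254 (untreated) for number 1, a log2 difference of 0.82. TRIB3, a pseudokinase that restrains AKT and ATF4 as feedback, read 1296 (LPA) and 1497 (untreated) for number 2, against 737 (LPA) and 714 (untreated) for number 1, a log2 difference of 0.94. VLDLR, a receptor for lipoproteins and reelin, read 159 (LPA) and 122 (untreated) for number 2, against 72.5 (LPA) and 52.9 (untreated) for number 1, a log2 difference of 1.15. In each of these 3 genes the arrays of number 2 and number 1 did not overlap. The lower VLDLR value lies under the filter's signal of 70.5 and is dim. That filter is a percentile of mean brightness over genes, so whether the value differs from background was not tested. The VLDLR difference was 0.69 with 64 as the pseudocount.

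**Figure D1:**
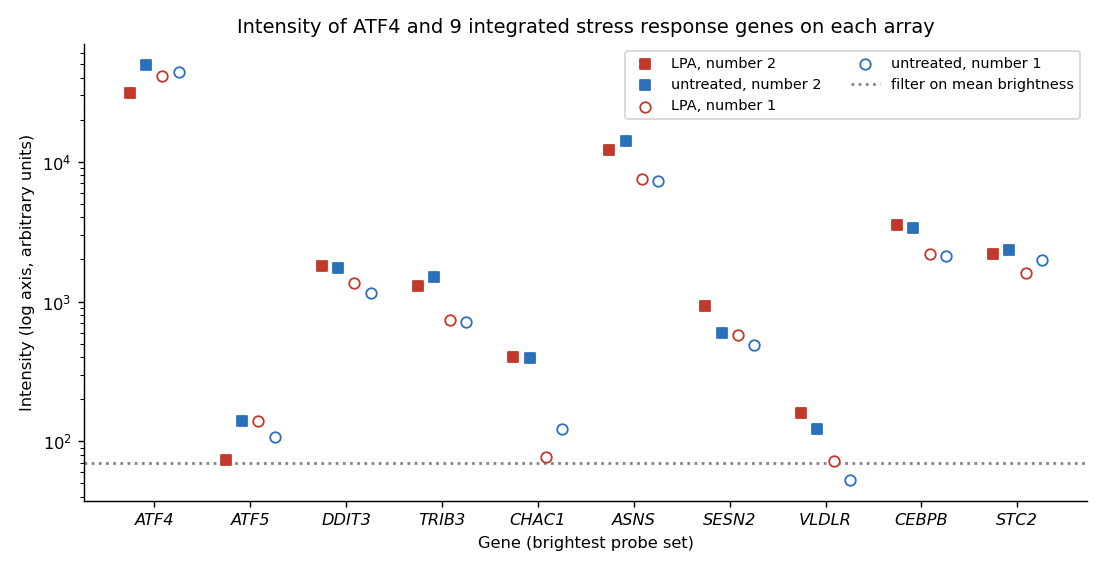
Intensity (log axis) of the brightest probe set of each gene on the 4 arrays; squares are replicate number 2, circles number 1, red LPA and blue untreated, and heights are not comparable between genes. For CHAC1 the number 2 arrays sit at 402 and 393 and the number 1 arrays at 78.0 and 122.

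Upstream sequences are shown for CHAC1, VLDLR and ASNS, 3 of the 4 members with the highest differences between replicate numbers, because binding of ATF4 with a C/EBP partner is known to occur at composite elements with the core TGATGNAA. The 250 bases before a RefSeq start (build GRCh38.p14) were searched on both strands, as TGATGNAA and as TTNCATCA, and matches are in capitals. For CHAC1 the bases are chr15:40953221-40953470 (plus strand), for ASNS chr7:97872409-97872658 (minus strand) and for VLDLR chr9:2621537-2621786 (plus strand), each written 5′ to 3′ along the gene.
CHAC1: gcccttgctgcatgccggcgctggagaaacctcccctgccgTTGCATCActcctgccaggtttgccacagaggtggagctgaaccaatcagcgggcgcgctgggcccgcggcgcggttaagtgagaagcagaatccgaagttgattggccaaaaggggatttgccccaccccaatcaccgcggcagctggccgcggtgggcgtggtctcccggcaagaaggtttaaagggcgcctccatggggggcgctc
ASNS: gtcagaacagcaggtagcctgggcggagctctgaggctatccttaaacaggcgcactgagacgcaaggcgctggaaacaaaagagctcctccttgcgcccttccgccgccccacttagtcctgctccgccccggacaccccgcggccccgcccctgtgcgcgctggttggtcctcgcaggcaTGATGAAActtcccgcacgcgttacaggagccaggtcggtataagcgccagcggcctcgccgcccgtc
VLDLR: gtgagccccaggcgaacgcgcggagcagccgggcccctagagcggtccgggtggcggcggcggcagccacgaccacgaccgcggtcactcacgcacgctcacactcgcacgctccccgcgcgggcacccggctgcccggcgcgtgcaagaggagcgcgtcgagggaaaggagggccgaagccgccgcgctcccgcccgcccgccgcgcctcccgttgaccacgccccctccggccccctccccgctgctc
The CHAC1 match, TTGCATCA, lies on the opposite strand at 209 to 202 bases before the start (chr15:40953262-40953269). The ASNS match, TGATGAAA, lies on the gene's strand at 68 to 61 bases before the start (chr7:97872469-97872476). All 10 genes had windows in the RefSeq table, 18 in all, and 2 genes (CHAC1 and ASNS) held a match in 1 window each. Over all entries, 1061 of 27305 genes (3.89%) and 3.14% of 35116 windows held one. The longer form TGATGCAAT (ATTGCATCA on the other strand) was in none of the 18 windows and in 0.216% of all windows. A match is a description of letters, not a bound site, and its absence from these windows says nothing of the factor. Among 223 other genes tested whose upstream bases held TGATGNAA, the median log2 difference of number 2 minus 1 was 0.026, beside 0.014 over all genes tested.

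Among the chosen transcription factors, both C/EBP family members read higher on the number 2 arrays. CEBPB, which can pair with ATF4, read 3549 (LPA) and 3369.8 (untreated) for number 2, against 2204 (LPA) and 2105 (untreated) for number 1, with a log2 difference of 0.69 between the LPA arrays and 0.68 between the untreated arrays. DDIT3 (also called CHOP, a C/EBP-family factor linked to cell death under lasting stress) read 1808 (LPA) and 1740.4 (untreated) for number 2, against 1359 (LPA) and 1145 (untreated) for number 1, a log2 difference of 0.51. Neither gene's number 2 and number 1 arrays overlapped. ATF5, a bZIP factor whose translation is controlled much like that of ATF4, read 73.2 (LPA) and 139 (untreated) for number 2, against 141 (LPA) and 107 (untreated) for number 1, so its arrays overlapped and its log2 difference was -0.28. The ATF5 difference between numbers had opposite signs in the treatments, -0.94 between the LPA arrays and 0.38 between the untreated arrays. Without LPA replicate 2 the ATF5 difference between numbers was 0.18, a value that also mixes in the difference between treatments.

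SESN2, a leucine sensor that restrains mTORC1, read 932 (LPA) and 598 (untreated) for number 2, against 575 (LPA) and 489 (untreated) for number 1, a log2 difference of 0.49. The SESN2 difference was 0.17 without LPA replicate 2 and 0.81 without untreated replicate 2. Leaving out 1 array makes the treatments unequal between numbers, so such values also mix in the difference between treatments. STC2, a secreted glycoprotein of the stanniocalcin family, read 2174 (LPA) and 2341 (untreated) for number 2, against 1612 (LPA) and 1968 (untreated) for number 1, a log2 difference of 0.34, which was 0.20 without LPA replicate 1. The number 2 values lay above the number 1 values in both genes, by less than in CHAC1, VLDLR and TRIB3.

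ATF4 itself (chr22:39520559-39522686) read 31265 (LPA) and 49420.5 (untreated) for number 2, against 41079 (LPA) and 44119 (untreated) for number 1. The number 2 values were the lowest and the highest of the 4, and the log2 difference between numbers was -0.12, made of -0.39 between the LPA arrays and 0.16 between the untreated arrays. It was 0.018 under quantile normalization, 0.22 without LPA replicate 2 and -0.45 without untreated replicate 2. The values with an array left out also mix in the difference between treatments. Relative to each gene's own 4-array mean, the median of the 9 other members minus ATF4 was 0.75 on LPA replicate 2 and 0.047 on untreated replicate 2, against -0.32 on LPA replicate 1 and -0.49 on untreated replicate 1. Both number 2 arrays lay above both number 1 arrays on this measure, with the LPA array, where ATF4 was lowest, highest. The 9 genes were chosen on the difference between numbers, so this separation describes the choice. LPA replicate 2 was also the array with the lowest maximum intensity, whose part in the measure was not tested.

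**Figure D2:**
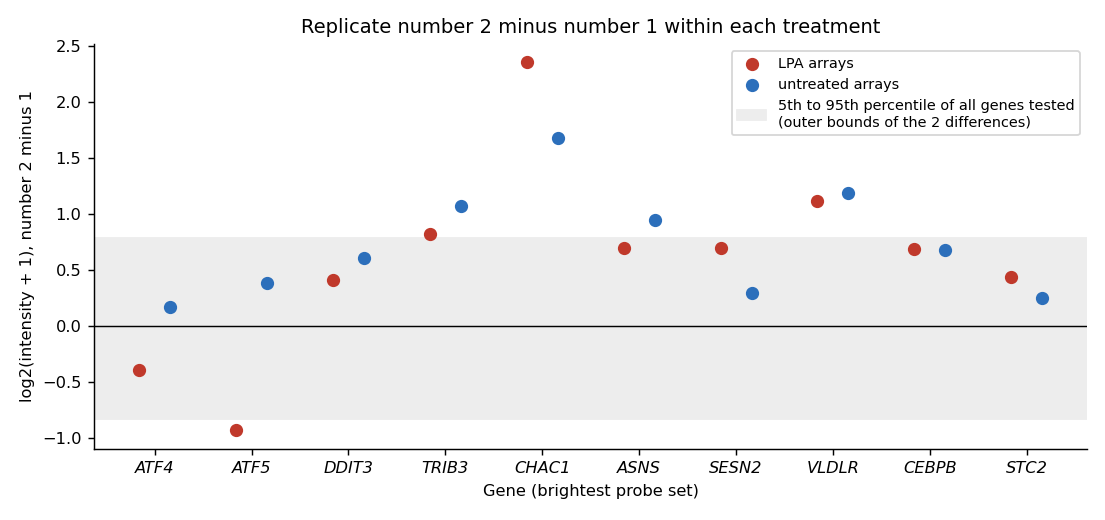
Replicate number 2 minus number 1 on the log2(intensity + 1) scale for the brightest probe set of each gene, in LPA arrays (red) and untreated arrays (blue); grey spans the 5th to 95th percentiles of all genes tested (-0.84 to 0.79, the outer bounds of both differences). ATF4 and ATF5 have opposite signs in the treatments, and the other 8 genes are above 0 in both.

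Over the 9 genes the median log2 difference of number 2 minus 1 was 0.68, with 0.69 between the LPA arrays and 0.68 between the untreated arrays, beside a median of 0.014 over all genes tested. In 8 of the 10 genes both number 2 values lay above both number 1 values, and in 0 below; over all genes tested 26.5% were above in this way and 24.1% below. Since the genes were chosen on this difference, the counts describe the choice. The ACTB 3′-to-5′ ratios were 18.8 (LPA) and 12.6 (untreated) for number 2, against 13.6 (LPA) and 13.4 (untreated) for number 1. For GAPDH all such ratios lay between 1.22 and 1.38. The part of RNA quality in the difference between numbers was not tested. That difference was larger between the LPA than between the untreated arrays for CHAC1 (2.35 against 1.67), SESN2 (0.70 against 0.29) and STC2 (0.43 against 0.25). It was smaller between the LPA arrays for TRIB3 (0.81 against 1.07), ASNS (0.69 against 0.94), DDIT3 (0.41 against 0.60) and VLDLR (1.12 against 1.19).

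LPA against no treatment gave small and mixed differences in the same genes. The median over the 9 genes was -0.066 on the log2 scale, with 4 above 0, beside 0.0092 over all genes tested, and within replicate numbers it was 0.033 for number 2 and 0.066 for number 1, so its sign is not settled. Of the members 0 read higher on both LPA arrays than on either untreated array (background 14.4% of all genes tested), and 1, ATF4, read lower on both (background 12.5%). ATF4 read 41079 and 31265 on LPA replicates 1 and 2, against 44119 and 49420.5 on untreated replicates 1 and 2, and differed by -0.38, made of -0.66 in number 2 and -0.10 in number 1. The lowest ATF4 value was on LPA replicate 2, the array with the low maximum intensity and high ACTB ratio, and their part in the difference was not tested. Under quantile normalization the ATF4 difference was -0.15, under cyclic loess -0.22, and without LPA replicate 2 -0.18.

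VLDLR was above its untreated value within both numbers (0.38 in number 2 and 0.45 in number 1). In number 1 that untreated value was under the filter. The brightest probe set of SESN2 was also above its untreated value in both (0.64 and 0.23). SESN2's other probe set, which passed the filter too, gave -0.042 in number 2 and 0.34 in number 1. The LPA and untreated arrays of both genes overlapped. The VLDLR difference of 0.41 between treatments was 0.24 with 64 as the pseudocount, -0.15 without LPA replicate 2 and -0.18 without untreated replicate 1. Leaving out 1 array makes the replicate numbers unequal between treatments. The 2 negative values therefore mix in the difference between numbers and cannot settle the direction. CHAC1 differed by 0.033 in number 2 and by -0.65 in number 1. CEBPB was nearly equal between treatments, at 0.075 in number 2 and 0.066 in number 1. ATF5 had opposite signs, -0.92 in number 2 and 0.40 in number 1. For DDIT3, TRIB3, ASNS and STC2 the mean difference of LPA minus untreated lay between -0.20 and 0.15.

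**Figure D3:**
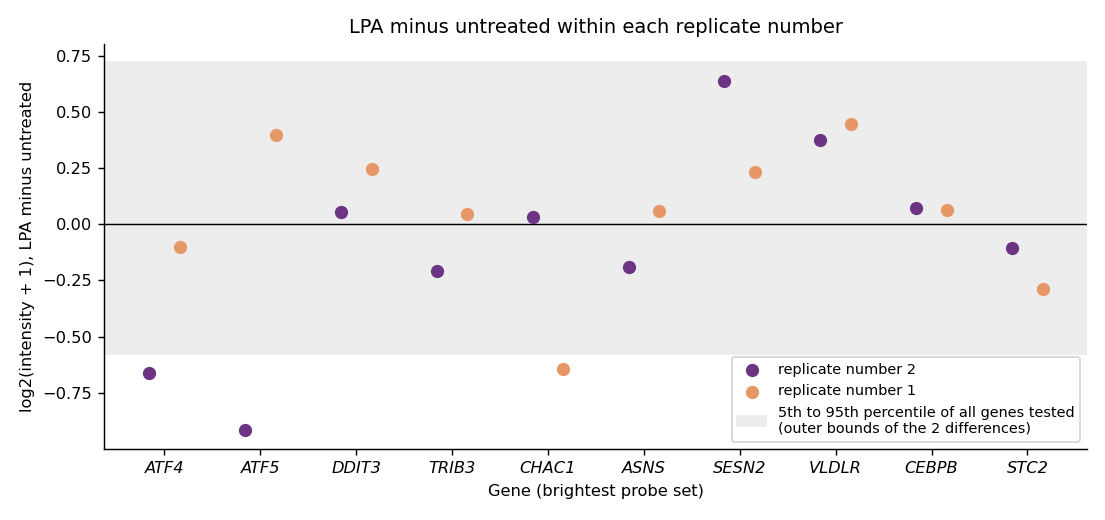
LPA minus untreated on the log2(intensity + 1) scale for the brightest probe set of each gene, in replicate number 2 (purple) and number 1 (orange); grey spans the 5th to 95th percentiles of all genes tested (-0.58 to 0.72, the outer bounds of both differences). ATF4 lies below 0 in both numbers (-0.66 and -0.10), and ATF5 in number 2 lies at -0.92.

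Probe sets of 1 gene did not always agree. The brightest probe set stands for the gene above, and of 17 probe sets 13 passed the filter. STC2's other probe set had the same direction between numbers (0.37) but was higher on both LPA arrays than on either untreated array, reading 487 and 614 on LPA replicates 1 and 2 against 328 and 434 on untreated replicates 1 and 2 (log2 difference 0.54, where the brightest gave -0.20). TRIB3's other probe set read 63.6 (LPA) and 135 (untreated) for number 2, against 101 (LPA) and 86.9 (untreated) for number 1, so that its difference between numbers was -0.016 where the brightest gave 0.94. SESN2's other probe set gave 0.23 between numbers and 0.15 between treatments. The other 3 ATF5 probe sets and a second ASNS probe set lay below the filter, where values such as 2.42 for ASNS on untreated replicate 1 and 6.64 for ATF5 on the same array are not read as levels.

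**Figure D4:**
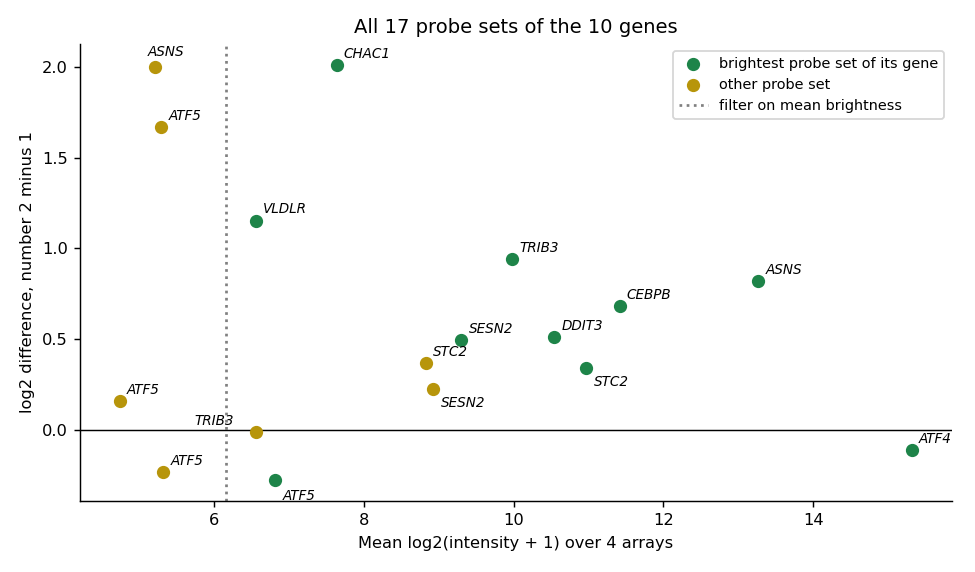
Log2 difference of replicate number 2 minus 1 (vertical) against mean log2(intensity + 1) over the 4 arrays (horizontal) for all 17 probe sets, green for the brightest of each gene and yellow for the others; the dotted line is the filter. TRIB3's probe sets lie at 0.94 and -0.016, while those of STC2 lie at 0.34 and 0.37.

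Other ATF4 targets, taken from lists that hold none of the 10 genes, were tested with limma over all 11865 genes. The lists, like the members, were chosen with earlier results of these data known, so calls in them are not independent evidence. In the comparison of replicate number 2 with 1, 445 genes (3.75%) passed an adjusted p of 0.05, 197 higher (1.66%) and 248 lower (2.09%), and under median centring 81 were higher and 283 lower. Among regulators and secreted proteins 3 of 16 tested targets rose on the number 2 arrays and 0 fell. DDIT4, an inhibitor of mTORC1 that also answers hypoxia, read 5427 (LPA) and 4609.7 (untreated) for number 2, against 1565 (LPA) and 1767 (untreated) for number 1 (log2 difference 1.59 ± 0.13 SE, limma adjusted p = 0.000312). GADD45A, a stress-induced growth arrest protein, differed by 0.77 ± 0.12 (limma adjusted p = 0.0109), and VEGFA, the endothelial growth factor, by 0.71 ± 0.14 (0.0216). ATF3, a stress-induced bZIP repressor, differed by 0.57 ± 0.16 and did not pass (limma adjusted p = 0.074).

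Among enzymes, transporters and tRNA synthetases of amino acid metabolism 2 of 27 tested targets rose in number 2 and 0 fell. The shares over all genes were 1.66% and 2.09%. In both arrays 14 lay above and 2 below, beside 26.5% and 24.1% of all genes. CTH, which makes cysteine from cystathionine, read 7790 (LPA) and 8234 (untreated) for number 2, against 3562 (LPA) and 3142 (untreated) for number 1 (1.26 ± 0.12, limma adjusted p = 0.000666). SLC7A11, the light chain of the cystine-glutamate exchanger, read 2587 (LPA) and 2717 (untreated) for number 2, against 1531 (LPA) and 1374 (untreated) for number 1 (0.87 ± 0.12, limma adjusted p = 0.00798). The other 2 probe sets of SLC7A11 gave 1.07 and 1.17, and the second of CTH 1.07. SHMT2 and ALDH1L2, of mitochondrial one-carbon metabolism, differed by 0.44 and 0.64 without passing. The median of the amino acid list was 0.15 and that of the regulators 0.16, both below the 0.68 of the 9 chosen genes. Between the LPA arrays the regulators' median was 0.35 and between the untreated arrays -0.010, and for the amino acid list these medians were 0.081 and 0.27. Of the regulators 5 lay above and 1 below in both arrays.

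Genes upstream of ATF4 gave no call. Of 19 kinases, eIF2 subunits, exchange factors and phosphatases 0 passed in either direction, with 2 at an unadjusted limma p under 0.05 and a median of 0.026. Over all 11865 genes tested, 2367 had an unadjusted limma p under 0.05 between numbers, the background for such counts here. DELE1, which relays mitochondrial stress to the kinase EIF2AK1, differed by 0.50 ± 0.17 (limma adjusted p = 0.122) and EIF2AK1 by 0.25 ± 0.11 (0.229), whereas further probe sets that passed the filter had 0.10 and 0.16 for DELE1 and -0.19 for EIF2AK1. Of 13 C/EBP relatives and CREB/ATF factors 0 passed (4 at an unadjusted limma p under 0.05), and 7 were above 0. CEBPG, a partner of ATF4, differed by 0.41 ± 0.12 (limma adjusted p = 0.0761), CEBPA by -0.26 and CEBPD by -0.13. CEBPG and ATF3 are also in the list of regulators. Stress in the endoplasmic reticulum engages the ATF6 and XBP1 arms of the unfolded protein response beside the eIF2 kinase EIF2AK3. Of 16 genes of these arms 0 passed (3 at an unadjusted limma p under 0.05), with a median of -0.044. In both arrays 4 lay above and 7 below, beside 26.5% and 24.1% of all genes tested. The disulfide isomerase PDIA6 differed by -0.29 and XBP1 by 0.22.

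Genes of the hypoxia response also differed between replicate numbers. Of 19 tested 7 rose on the number 2 arrays and 0 fell, beside 1.66% and 2.09% of all genes tested. In both arrays 17 were above and 1 below, beside 26.5% and 24.1% of all genes tested. The median was 0.68, with 0.70 between the LPA arrays and 0.66 between the untreated arrays. ANKRD37 read 1016 (LPA) and 1144 (untreated) for number 2, against 316 (LPA) and 351.4 (untreated) for number 1 (1.69 ± 0.18, limma adjusted p = 0.00159). The mitophagy receptor BNIP3 (0.68 ± 0.13, limma adjusted p = 0.0198) and the collagen prolyl hydroxylase subunit P4HA1 (0.79 ± 0.12, 0.0121) also rose, and VEGFA belongs to both this list and that of ATF4 targets. With the mean of all its probe sets P4HA1 had -1.29, the opposite sign, but none of them other than the brightest passed the filter. The part of this list's difference in the values of the 10 genes was not tested.

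All 11 list genes called between numbers had a positive difference with each array left out in turn. Their sign could not change in those fits, because the numbers did not overlap in any of these genes. The calls rest on the fit. Without untreated replicate 1, 3 of the 11 passed (ANKRD37, CTH and DDIT4) and 39 of 11865 genes were called in all. Without the intensity trend 0 of the 11 passed, and with the mean of all probe sets only CTH and DDIT4 did.

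**Figure D5:**
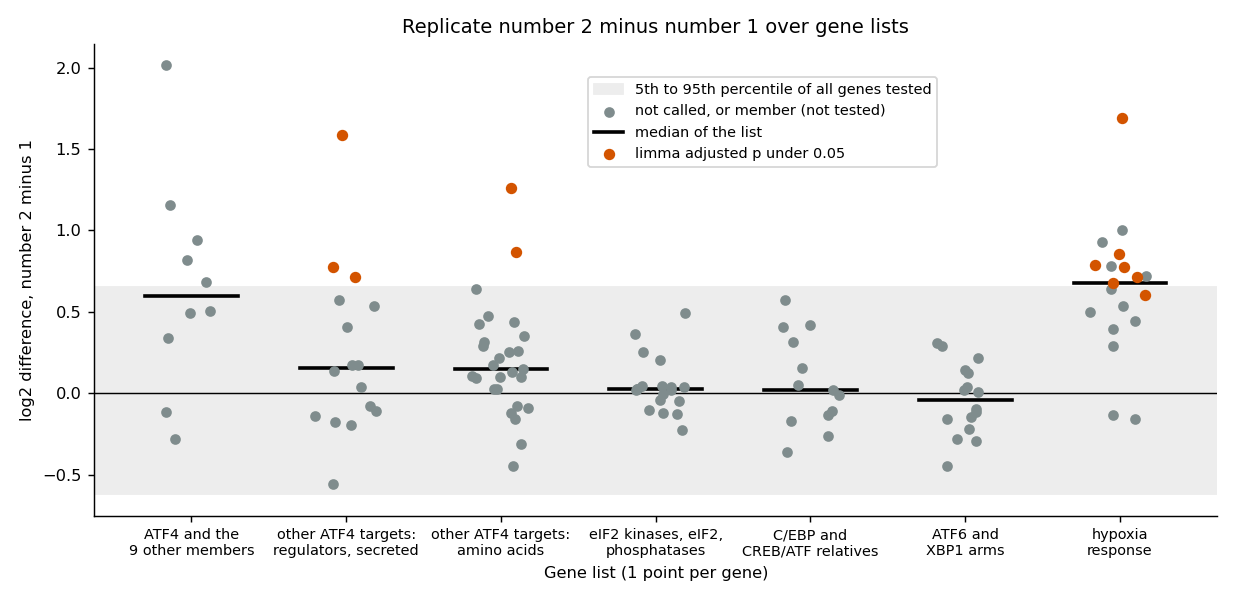
Log2 difference of replicate number 2 minus 1 for each tested gene of 7 lists; bars are list medians, orange points passed limma's adjusted p of 0.05, and grey spans the 5th to 95th percentiles of all genes tested (-0.62 to 0.65). The 10 chosen genes (not tested) and the hypoxia list have the highest medians, 0.60 and 0.68.

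For LPA against no treatment 0 of 11865 genes passed the limma test, with 207 at an unadjusted p under 0.05, and with the replicate number as a block 32 passed. In the lists, 0 of the 16 regulators, 27 amino acid genes, 19 upstream genes, 13 C/EBP and CREB/ATF relatives, 16 unfolded protein response genes and 19 hypoxia genes passed, with an unadjusted limma p under 0.05 for 1, 1, 0, 1, 0 and 0 of them. CBS, which forms cystathionine, read 1680.0 and 1426 on LPA replicates 1 and 2, against 2418 and 2518 on untreated replicates 1 and 2, a log2 difference of -0.67 ± 0.17 (limma adjusted p = 0.9999). Other CBS probe sets gave 0.08 and 1.17. KLHL24 differed by -0.60 ± 0.24, where its other probe sets gave 0.065, -0.13 and 0.30. CREB3, a membrane-bound CREB relative, differed by -0.53 ± 0.22. Upstream of ATF4, the sensor of uncharged tRNA EIF2AK4 differed by 0.24 ± 0.18, its activator GCN1 by 0.24 ± 0.17 and the eIF2 subunit EIF2S2 by -0.28 ± 0.16, all without a call. Further probe sets gave -0.050 for EIF2AK4, -0.13 for GCN1 and -0.25 for EIF2S2.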

How the data were processed

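RNA of HEK293 cells was measured on 4 arrays, 2 with LPA and 2 untreated. The deposited table holds linear intensity for each probe set and array, and the submitters' processing notes name MAS5 as its source, with the version, background settings and scaling target not stated in the sources used here. With 2% trimmed from each end, every array had a mean of 500.1, which shows that the authors' values were scaled per array. Identical values numbered at most 1 between any pair of arrays.

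Of 54675 probe sets 41097 had 1 symbol, 1801 several and 11777 none. Symbols were updated through Entrez identifiers for 41043, and 0 differed. Probe sets with 1 symbol were used, so BBC3, GPT2, MARS1, ATF1 and CA9, among others, were not analysed here. Each gene was represented by its brightest probe set, and genes in the lowest 40% by mean log2 value, below a signal of 70.5, were not tested. Values were log2(intensity + 1), on which a fold understates the difference of dim genes. limma 3.58.1 (R 4.3.3; lmFit, eBayes with an intensity trend, two-sided) was fitted to all 11865 genes for LPA minus untreated and for replicate number 2 minus 1, with Benjamini-Hochberg adjustment and a threshold of 0.05, after it had been tested on simulated data. The number of arrays limits precision: the median SE was 0.24 for LPA minus untreated and 0.18 for number 2 minus 1. SE is limma's moderated value.

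Named genes were all members with all their probe sets, up to 4 genes of each list by smallest limma p in each comparison, of which some are given, and the 5 genes nearest in pattern to ATF4 and to the mean of the 9 others. INSIG2, PDK1 and SLC2A3 were also among the hypoxia genes called. The members and lists were chosen with earlier results of these data known. Promoter sequences and gene positions come from RefSeq (GRCh38.p14), and all 10 genes matched. Alternatives were quantile, median and cyclic loess normalization, a pseudocount of 64, the mean of a gene's probe sets, no filter or one at the 60th percentile, no trend, a block, and leaving out each array.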

Additional observations from a re-analysis of the deposited data

How the results depend on the processing

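For the 9 members other than ATF4, the median log2 difference of number 2 minus 1 was 0.61 with median centring and 0.70 with cyclic loess. It was 0.67 with a pseudocount of 64 and 0.51 with the mean of all probe sets. Over the fits that leave out 1 array it was 0.65 to 0.72. Its sign could not change in those fits, because the numbers did not overlap in 8 of the 9 genes. The median of LPA minus untreated was 0.0062 with quantile normalization and -0.032 with median centring. It was 0.015 with cyclic loess and 0.15 with the mean of all probe sets, so its sign changed. Over the fits that leave out 1 array it was -0.32 to 0.45, but those values mix in the difference between numbers. The count of genes called between numbers was 219 with no filter, 9 with the mean of all probe sets, 0 without the trend (2367 had an unadjusted p under 0.05 with it), 1382 with treatment as a block, and 39 to 631 over the fits that leave out 1 array. P4HA1 turned to -1.29 with the mean of all its probe sets, of which only the brightest passed the filter. Between treatments 32 genes were called with the replicate number as a block, 4 with that block and quantile normalization, and 0 to 3 when 1 array was left out. Across genes, the difference between numbers in LPA arrays and in untreated arrays had r = 0.33, and the labels do not say that the number pairs arrays. The causes were not tested. Dim values, such as those of VLDLR and ATF5 and of CHAC1 on the number 1 arrays, limit what the differences show. Having 2 arrays per group limits all of them.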

Other observations

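By the distance between log2 values centred over the 4 arrays, the tested genes outside the list that lay nearest to the mean pattern of the 9 members other than ATF4 were ATP23 (0.042), CNKSR1 (0.056), CHST7 (0.071), PRR5L (0.077) and GIN1 (0.081). ATP23, a protease of mitochondrial ATP synthase assembly, read 1652 (LPA) and 1751 (untreated) for number 2, against 1035 (LPA) and 1004 (untreated) for number 1. CHST7, a sulfotransferase, read 839 (LPA) and 906 (untreated) for number 2, against 539 (LPA) and 497 (untreated) for number 1.

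The genes nearest to ATF4 were RPL3 (0.030), RPL12 (0.046), HCG22 (0.051), COMMD4 (0.056) and RPS12 (0.060), of which RPL3, RPL12 and RPS12 encode ribosomal proteins. RPL3 read 60281 and 45617 on LPA replicates 1 and 2, against 63681 and 73389 on untreated replicates 1 and 2, a log2 difference of -0.38, where ATF4 had -0.38. RPL12 differed by -0.37 and RPS12 by -0.33, each lowest on LPA replicate 2. These likenesses rest on 4 arrays and are a description.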
